A study of Mus musculus with 8 samples.

Results

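The Hox cluster genes were followed here through the ATAC-seq peaks that lie in and around them. The 38 member genes stand in 4 clusters, Hoxa on chromosome 6, Hoxb on chromosome 11, Hoxc on chromosome 15 and Hoxd on chromosome 2. A peak was taken when its centre lay within 20 kb of the GRCm38 span of a member gene, which gave 139 of the 134407 peaks of the series. Of these, 34 belong to Hoxa, 42 to Hoxb, 33 to Hoxc and 30 to Hoxd.

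Chromatin accessibility had been profiled in wild-type E14 cells, an established mouse embryonic stem cell line, grown on gelatin in serum and LIF. In ATAC-seq the Tn5 transposase cuts open chromatin and leaves sequencing adapters there, so that the number of reads in a peak measures how accessible that stretch is. There were 4 control libraries, labelled as the control condition, and 4 paused libraries from cells that had been kept for 24 h with INK128 at 200 nM, which blocks the growth-controlling kinase mTOR. Every library was made from 50000 live cells of the same line and genotype, so that the groups differ in the inhibitor alone as far as the labels say.

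Hox genes encode homeodomain transcription factors that give the cells along the head-to-tail axis of the embryo their position. Within a cluster the genes are read in the same direction, and those at one end (paralogue groups 1 to 4, called early here) are switched on first and closest to the head, while those at the other end (groups 9 to 13, called late) follow later and closer to the tail. In embryonic stem cells the clusters are known to be silent or nearly so and covered by Polycomb repressor complexes, with marks of both repression and readiness at their promoters.

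The promoters show how closely the peaks sit at the genes. RefSeq (GRCm38.p6) gave 24 promoter sequences, each from 250 bases before to 50 after a start site, for 22 of the 38 members. A peak centre lay within 1 kb of the start site for 19 of the 24 (79.2%), against 54.2% of all 32851 promoters of the table. In 16 of these 19 the nearest centre was downstream of the start site, with a median position 297 bp into the gene. Among all promoters with a centre within 1 kb, 40.8% had it downstream, and the median lay 29 bp upstream (-29 bp).

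The Hoxa5 and Hoxa13 promoters are printed because the peak just downstream of each was called higher in paused cells, and capitals mark the match to CCAAT, the box bound by the factor NF-Y, on either strand. The Hoxd1 and Hoxd10 promoters are printed because a peak covers part of them, and there the capitals mark the bases inside that peak. The Hoxa pair lies at chr6:52204538-52204837 and chr6:52260831-52261130, both on the minus strand. The Hoxd pair lies at chr2:74762730-74763029 and chr2:74691641-74691940, both on the plus strand.
Hoxa5: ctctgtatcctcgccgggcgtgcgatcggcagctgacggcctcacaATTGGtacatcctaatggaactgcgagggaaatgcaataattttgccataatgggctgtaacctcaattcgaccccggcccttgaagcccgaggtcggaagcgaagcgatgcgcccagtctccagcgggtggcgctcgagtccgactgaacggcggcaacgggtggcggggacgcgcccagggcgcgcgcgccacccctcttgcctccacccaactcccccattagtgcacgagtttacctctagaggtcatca
Hoxa13: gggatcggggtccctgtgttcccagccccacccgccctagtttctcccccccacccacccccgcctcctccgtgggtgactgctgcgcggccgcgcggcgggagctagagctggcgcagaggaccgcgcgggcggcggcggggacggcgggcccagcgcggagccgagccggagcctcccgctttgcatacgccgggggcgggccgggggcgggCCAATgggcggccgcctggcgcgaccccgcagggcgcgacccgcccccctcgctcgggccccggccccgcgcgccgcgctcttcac
Hoxd1: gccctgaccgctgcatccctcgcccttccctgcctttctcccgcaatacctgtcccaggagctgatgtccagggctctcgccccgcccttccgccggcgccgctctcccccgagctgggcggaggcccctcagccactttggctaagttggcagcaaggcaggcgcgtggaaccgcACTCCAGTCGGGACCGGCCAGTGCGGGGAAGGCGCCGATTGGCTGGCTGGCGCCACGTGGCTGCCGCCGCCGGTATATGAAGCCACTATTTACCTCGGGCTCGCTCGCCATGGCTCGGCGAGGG
Hoxd10: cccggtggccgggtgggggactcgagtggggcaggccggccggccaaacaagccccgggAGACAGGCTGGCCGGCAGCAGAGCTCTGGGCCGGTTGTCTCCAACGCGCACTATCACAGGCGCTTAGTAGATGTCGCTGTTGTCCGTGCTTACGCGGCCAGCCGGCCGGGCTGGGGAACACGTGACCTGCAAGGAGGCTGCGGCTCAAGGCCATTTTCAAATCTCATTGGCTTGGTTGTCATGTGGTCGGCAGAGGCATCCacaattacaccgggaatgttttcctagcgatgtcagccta

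The Hoxd1 window holds 124 bases of a peak and the Hoxd10 window the whole of one. Median GC content was 57.7% over the 24 promoters and 52.7% over all promoters, and the median number of CG pairs was 14.5 and 7. The Hoxa13 promoter had the highest GC content of the 24, 81.0% with 45 CG pairs. Searched on both strands, CCAAT was in 15 of the 24 (62.5%, against 37.4% of all promoters) and CACGTG, the E-box bound by factors of the Myc and Tfe families, in 5 (20.8%, against 7.15%). All 5 promoters with CACGTG were Hoxd promoters, those of Hoxd1, Hoxd4, Hoxd10, Hoxd11 and Hoxd13. The 24 are mostly from Hoxa and Hoxd. Hoxb is covered by Hoxb1, Hoxb4 and Hoxb8 alone and Hoxc by Hoxc4 alone, so that the motif cannot be compared over the 4 clusters. The other motifs searched were TATAAA in 4 (16.7%, against 13.6%), TGATNNAT, a site shape shared by Hox and Pbx proteins, in 4 (16.7%, against 8.85%), and AGGGGGC, the core of a CTCF site, in 2 (8.33%, against 10.6%). A match to CACGTG and one to CCAAT stand inside the peak in both the Hoxd1 and the Hoxd10 promoter. These matches describe the letters and are not bound sites.

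The clusters also carry microRNA genes, and the 5p strands are printed because copies in different clusters share a seed (bases 2 to 8, in capitals).
miR-10a-5p, in Hoxb: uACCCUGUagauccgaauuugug
miR-10b-5p, in Hoxd: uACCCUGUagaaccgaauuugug
miR-196a-5p, in Hoxb and in Hoxc: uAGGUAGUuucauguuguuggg
miR-196b-5p, in Hoxa: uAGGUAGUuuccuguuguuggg
None of the peaks nearest to these microRNAs was called in the limma-trend test described next. The closest was 247 bp from miR-196b-5p, between Hoxa9 and Hoxa10, with 88.8 ± 20.1 scaled reads in control and 103 ± 14.1 in paused cells (SD, n = 4), and its groups overlapped. The others stood 463 to 1358 bp away, with log2 changes from -0.30 to 0.15.

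The values are reads per peak divided by 1 factor per library, called scaled reads here, and control replicate 1 was the deepest library, with 21161767 reads in peaks, against 4434037 in control replicate 3, the shallowest. A peak was tested with limma-trend on log2(value + 1) where its mean value was at least 10, and was called at a Benjamini-Hochberg adjusted p under 0.05 over all 127402 tested peaks. The labels do not say that the replicates came from separate cultures, so that the p-values measure the spread between these libraries, which may be technical. In such bulk libraries fewer cells with an open site and less opening per cell cannot be told apart. Of genes that mark embryonic stem cells, 7 of 8 had a peak within 2 kb, with a median of the control means of 207 scaled reads, whereas 5 of 6 fibroblast markers had one with a median of 68.9, and 4 of 5 markers of primitive endoderm one with a median of 100.2. The control means of the 3 lists overlapped, running from 24.5 to 314, from 34.4 to 147 and from 53.1 to 141 in that order. Dppa5a, Col3a1 and Gata4 had none.

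Most Hox cluster peaks had similar values in control and paused cells, and the called ones were a small part. Of the 139 peaks 134 were tested, and 12 were called higher and 2 lower in paused cells (10.4%). Over all tested peaks 13.9% were called, 11.0% higher and 2.91% lower, so that the Hox share was not above the background. The median log2 change was 0.12 over the Hox peaks, with its middle 50% from -0.13 to 0.29, and 0.10 over all tested peaks. Only 1 Hox peak moved by 1 or more on the log2 scale. The groups did not overlap for 15 Hox peaks, 13 higher and 2 lower (11.2%, against 17.4% of all tested peaks).

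How many peaks were called differed between tests and scalings. The summed deposited values were themselves 11.5% higher in paused cells over all peaks. edgeR with the deposited factors called 13 Hox peaks higher and 5 lower (13.4%, against 16.5% of all tested peaks). With edgeR and TMM library sizes on the recovered reads, 8 Hox peaks were called higher and 9 lower, where 12.7% of all tested peaks were called. With limma-trend, TMM rescaling gave 7 higher and 3 lower (7.46%, against 10.0% of all tested peaks). Scaling to total reads in peaks gave 4 and 5 (6.72%, against 9.87%). DESeq2 called 1 in each direction (1.49%, against 4.55%). A loess correction on peak strength in limma-trend gave 2 higher and 4 lower (4.48%, against 8.60%). The median change of all tested peaks moved from 0.10 to -0.01 with TMM rescaling and to -0.05 with total reads, so that a small change is to be read against that shift. The authors' deposited table listed 12 Hox peaks as higher and 1 lower at an FDR under 0.05, and all 13 were called in the same direction here. Over all 134407 peaks it listed 12355 as higher and 2416 as lower. Only the fall beside Hoxb1 and the rise between Hoxc12 and Hoxc13 kept their call in every test, filter and scaling that included them (the Hoxb1 peak falls under a minimum of 50 reads).

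**Figure D1:**
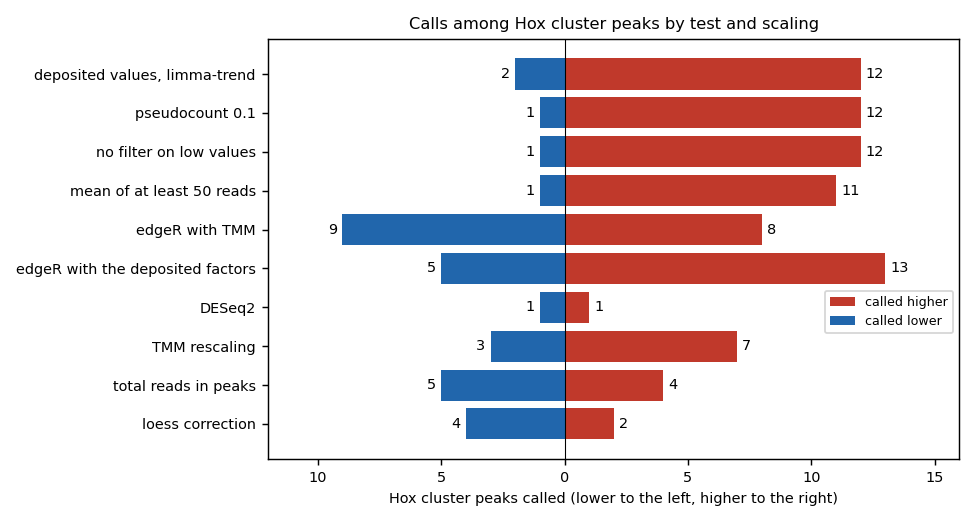
Number of Hox cluster peaks called lower (bars to the left) and higher (bars to the right) in paused cells, for each test and scaling of the 8 libraries; the top bar is the test used in the text, with 12 higher and 2 lower. With limma-trend there are 7 higher calls after TMM rescaling and 4 after scaling to total reads, and DESeq2, which differs in both test and size factors, has 1.

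Peak strength went with the change, in the Hox clusters as elsewhere. When all tested peaks were divided at mean values of 24.1 and 53.4 into 3 classes of equal size, the 29 weakest Hox peaks had a median log2 change of -0.21, the 42 of middle strength one of 0.04 and the 63 strongest one of 0.18. The same medians over all tested peaks were -0.08, 0.09 and 0.19. Of the strongest Hox peaks 11 were called higher and 1 lower (19.0%, against 20.2% of all the strongest peaks), so that 11 of the 12 rises lay in this class. The Hox peaks were stronger than most, with a median value of 46.5 against 32.3 over all peaks.

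**Figure D2:**
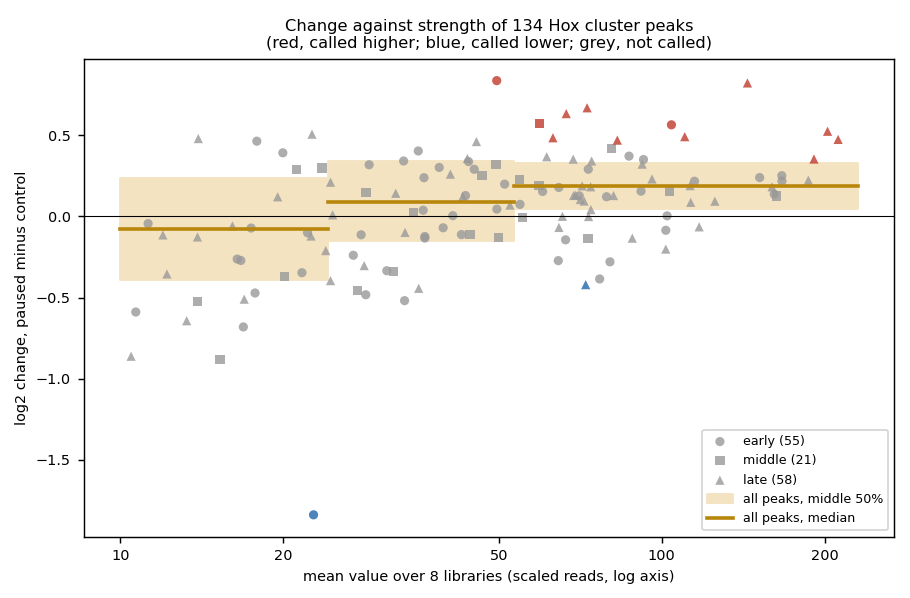
Log2 change (paused minus control) of the 134 tested Hox cluster peaks against mean value in scaled reads on a log axis, with circles for early, squares for middle and triangles for late genes; the lines and bands are the median and the middle 50% of all tested peaks in each of the 3 classes of strength. Weak peaks lie lower and strong peaks higher, around the medians of -0.08, 0.09 and 0.19, and the red points are nearly all on the right.

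Hoxa, which patterns among others the hindbrain, lung, limb and blood, had 5 peaks higher and none lower of 34 tested. This was 14.7%, against 13.9% of all tested peaks, and the median change was 0.13. With edgeR and TMM 2 were higher and 2 lower (11.8%, against 12.7% of all tested peaks). With limma-trend on total reads 1 was higher and 1 lower (5.88%, against 9.87%). The strongest Hoxa peak, 1247 bp from Hoxa9 (chr6:52221750-52221950), held 157, 155, 169 and 190 scaled reads in the 4 control libraries and 191, 216, 217 and 233 in the paused ones. The groups did not overlap, though paused replicate 1 stood hardly above control replicate 4, and the log2 change was 0.35 (SE 0.11, adjusted p = 0.0325). Hoxa9 is best known for its part in blood stem cells and leukaemia. The largest rise was in a peak inside the long Hoxa3 span and 322 bp from the end of Hoxa4 (chr6:52191925-52192125), with 38.4, 44.2, 18.6 and 44.1 in control and 56.5, 74.1, 66.7 and 53.9 in paused cells. Every paused library was above every control library, and the change was 0.84 (SE 0.20, adjusted p = 0.00455). The peak 297 bp inside Hoxa5 (chr6:52204190-52204390), a gene of lung and neck development whose promoter is printed above, held 54.3, 49.0, 39.0 and 47.0 in control and 93.4, 58.4, 63.6 and 70.3 in paused cells. Paused replicate 1 was the highest by far and the groups did not overlap, with a change of 0.57 (SE 0.17, adjusted p = 0.0178).

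Near Hoxa13, which shapes digits and the urogenital end of the gut, both a gene-end peak and a distal one rose. The peak 420 bp inside the gene (chr6:52260360-52260560) held 50.5, 81.2, 45.7 and 47.0 in control and 126, 77.3, 72.9 and 82.0 in paused cells. Here the groups overlapped, since control replicate 2 was above paused replicates 2 and 3, and the change was 0.67 (SE 0.17, adjusted p = 0.00793). The peak 13256 bp beyond the gene (chr6:52274036-52274236) rose from 49.1, 58.5, 54.2 and 47.0 to 62.3, 71.0, 85.3 and 76.2, without overlap (0.49, SE 0.16, adjusted p = 0.0307). Several calls at single Hoxa peaks were lost when 1 library was left out, with the direction of change kept. The Hoxa9 peak lost its call without control replicate 1, 2 or 3 or paused replicate 2, 3 or 4 (adjusted p 0.0557 to 0.118), and the distal Hoxa13 peak without control replicate 1 or 4 or paused replicate 2, 3 or 4 (0.0509 to 0.0959). The Hoxa5 peak lost it without control replicate 3 (0.0654) or paused replicate 1 (0.0989), and the Hoxa13 gene-end peak without paused replicate 1 (0.0665).

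Hoxb held the largest change of the 4 clusters, a fall beside Hoxb1. Of its 40 tested peaks 3 were higher and 2 lower (12.5%, against 13.9% of all tested peaks), and the median change was -0.05. With edgeR and TMM 3 were higher and 6 lower (22.5%, against 12.7% of all tested peaks). With the loess correction none was higher and 3 were lower (7.5%, against 8.60% of all tested peaks). Hoxb1 gives the fourth segment of the hindbrain its identity and is among the first Hox genes to answer retinoic acid, through elements that flank it. The peak 854 bp beyond the end of Hoxb1 (chr11:96369008-96369208) held 36.0, 25.1, 35.6 and 44.1 scaled reads in control and 8.07, 11.04, 18.62 and 3.51 in paused cells. All paused libraries were below all control libraries, with a change of -1.84 (SE 0.32, adjusted p = 0.000123), the largest change among the tested Hox peaks. The paused values rest on few reads, since 3 reads are a value of 3.51 in paused replicate 4. By limma-trend without that library the change was -1.46, and without paused replicate 3 it was -2.17, with the call kept. A second peak further out, 6754 bp from Hoxb1 (chr11:96374908-96375108), went the other way, from 90.2, 80.0, 69.4 and 95.5 to 106, 151, 123 and 118. Its groups did not overlap and the change was 0.57 (SE 0.14, adjusted p = 0.00493). Whether either peak covers a retinoic acid response element was not analysed here.

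At the far end of the same cluster, Hoxb13, a gene of the tail and the prostate that stands apart from the other Hoxb genes, also had peaks moving both ways. The strongest Hoxb peak, 3930 bp from Hoxb13 (chr11:96190286-96190486), held 161, 127, 161 and 220 in control and 213, 262, 211 and 265 in paused cells. Control replicate 4 lay above paused replicates 1 and 3, so that the groups overlapped, and the change was 0.53 (SE 0.13, adjusted p = 0.00523). The peak 47 bp inside the gene end (chr11:96194263-96194463) fell from 84.0, 86.0, 84.7 and 76.4 to 63.5, 50.5, 63.6 and 70.3, without overlap (-0.42, SE 0.15, adjusted p = 0.0491). That fall lost its call without any single control library or without paused replicate 1, 2 or 3 (adjusted p 0.0559 to 0.160). Inside Hoxb9, a gene of the thoracic skeleton and mammary gland, a peak 569 bp from the gene end (chr11:96271799-96271999) rose from 94.0, 105, 91.4 and 76.4 to 127, 120, 140 and 129. No libraries of the groups overlapped (0.49, SE 0.13, adjusted p = 0.00929). The peak 567 bp from Hoxb2, a gene of the hindbrain, held 104, 76.4, 81.3 and 64.7 in control and 118, 114, 86.9 and 96.1 in paused cells, which overlapped (0.35, SE 0.15, adjusted p = 0.103, and 0.0463 without control replicate 1).

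In Hoxc the 4 called peaks, all higher, lay together at the Hoxc12 and Hoxc13 end, and the other 27 of 31 tested were not called. The called share was 12.9%, against 13.9% of all tested peaks. With edgeR and TMM 3 Hoxc peaks were higher and 1 lower (12.9%, against 12.7% of all tested peaks). Hoxc13 is needed for hair and nails, and Hoxc12 is its neighbour of the next lower group. The strongest peak of all 4 clusters, 342 bp from Hoxc13 (chr15:102920689-102920889), held 173, 185, 188 and 162 in control and 261, 271, 216 and 239 in paused cells. The groups did not overlap, and the change was 0.48 (SE 0.11, adjusted p = 0.00358). The peak between the genes, 3135 bp from Hoxc13 (chr15:102931849-102932049), held 124, 86.0, 93.1 and 113 in control and 156, 203, 188 and 189 in paused cells. It had the smallest adjusted p of the Hox peaks, 3.5e-05, with no overlap and a change of 0.82 (SE 0.13).

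Next to it a peak 27 bp inside the end of Hoxc12 (chr15:102936753-102936953) rose from 60.2, 58.5, 47.4 and 42.6 to 90.0, 83.6, 69.8 and 80.8. Again no paused library fell into the control range (0.63, SE 0.16, adjusted p = 0.00494). The following peak, 1304 bp from Hoxc12 (chr15:102939813-102940013), rose from 71.9, 64.5, 72.8 and 67.6 to 91.1, 93.1, 94.7 and 107, also without overlap (0.47, SE 0.14, adjusted p = 0.0178, and 0.0723 without paused replicate 4). These last 3 are neighbours, with no other tested peak between them, over 8165 bp. The peak after them lies 928 bp from an end of Hotair, a long noncoding RNA known for ties to Polycomb complexes, and held 80.9, 84.8, 74.5 and 85.2 in control and 86.5, 115, 93.1 and 116 in paused cells. Its groups did not overlap either, but it was not called (0.32, SE 0.14, adjusted p = 0.112). Beyond Hotair the strongest peak of Hoxc11, a gene of the hindlimb and lower spine, held 103, 92.0, 119 and 123 in control and 88.8, 94.6, 102 and 91.4 in paused cells, which overlapped (-0.20, SE 0.13, adjusted p = 0.327).

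In Hoxd no peak of 29 tested was called by limma-trend or by edgeR with TMM, although 17 of them were in the strongest class. Of all tested peaks these tests called 13.9% and 12.7%. At an unadjusted p under 0.05 limma-trend had 2 of the Hoxd peaks, and 36517 of all 127402 tested peaks. In Hoxd edgeR with the deposited factors called 1 higher (3.45%, against 16.5% of all tested peaks). By limma-trend the median change was 0.12. Hoxd genes pattern the limbs, digits and genitals, and their late members work under distant enhancers on either side of the cluster. The strongest Hoxd peak lies 12283 bp from Hoxd13 and overlaps another gene, Evx2. It held 160, 227, 161 and 144 in control and 230, 192, 200 and 178 in paused cells. Control replicate 2 was nearly as high as the highest paused library, and the change was 0.22 (SE 0.13, adjusted p = 0.240). The peak in the printed Hoxd1 promoter held 118, 185, 146 and 170 in control and 190, 167, 200 and 157 in paused cells, and its groups overlapped (0.22, SE 0.13, adjusted p = 0.263). The peak in the printed Hoxd10 promoter held 167, 152, 151 and 131 against 175, 177, 164 and 163, again with overlap (0.18, adjusted p = 0.309).

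The peak 810 bp inside the end of Hoxd8, a gene of trunk patterning, held 58.1, 86.0, 62.7 and 66.1 in control and 134, 74.1, 79.1 and 85.5 in paused cells. Paused replicate 1 alone stood far above the rest (0.42, SE 0.16, adjusted p = 0.0768). The peak 139 bp inside the end of Hoxd13, the digit gene at the end of the cluster, held 85.0, 159, 88.1 and 95.5 in control and 141, 104, 123 and 108 in paused cells, with overlap (0.19, SE 0.15, adjusted p = 0.432). Leaving out control replicate 2 brought the strongest Hoxd peak to an adjusted p of 0.0465 and the Hoxd8 peak to 0.0315, and leaving out paused replicate 2 brought the Hoxd8 peak to 0.0490. The lack of calls in Hoxd therefore rested in part on those libraries.

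**Figure D3:**
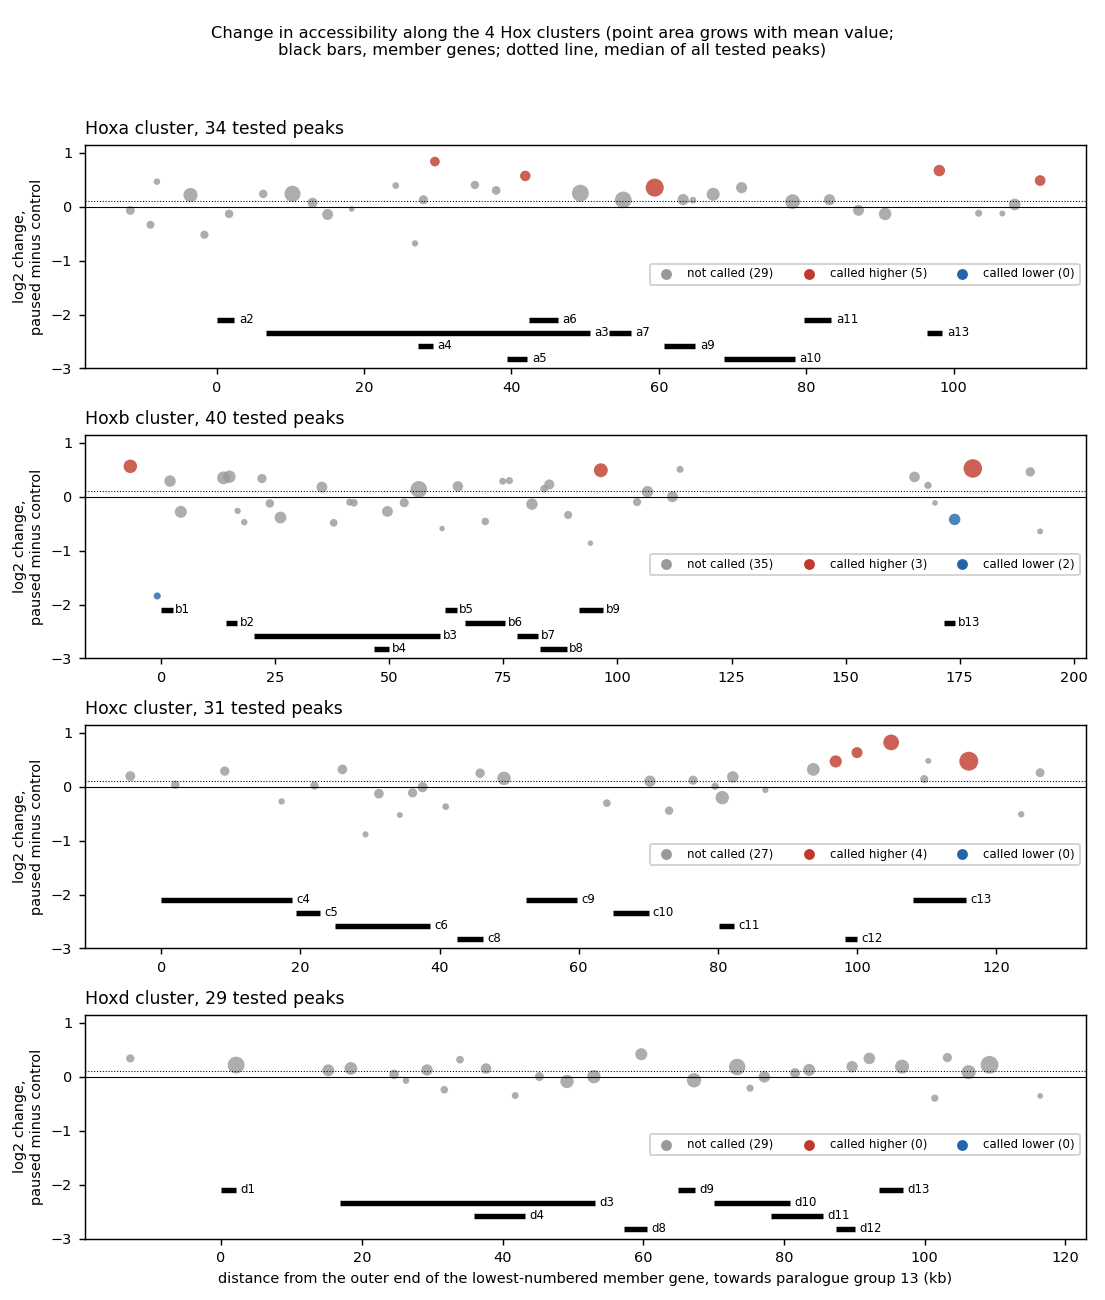
Log2 change (paused minus control) of each tested peak against its distance in kb from the outer end of the lowest-numbered member gene, for Hoxa, Hoxb, Hoxc and Hoxd from top to bottom; point area grows with mean value, black bars are member genes and the dotted line is the median of all tested peaks, 0.10. The 4 red points of Hoxc stand together at the Hoxc12 and Hoxc13 end, Hoxb has the lowest point, -1.84, beside Hoxb1, and Hoxd has no coloured point.

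**Figure D4:**
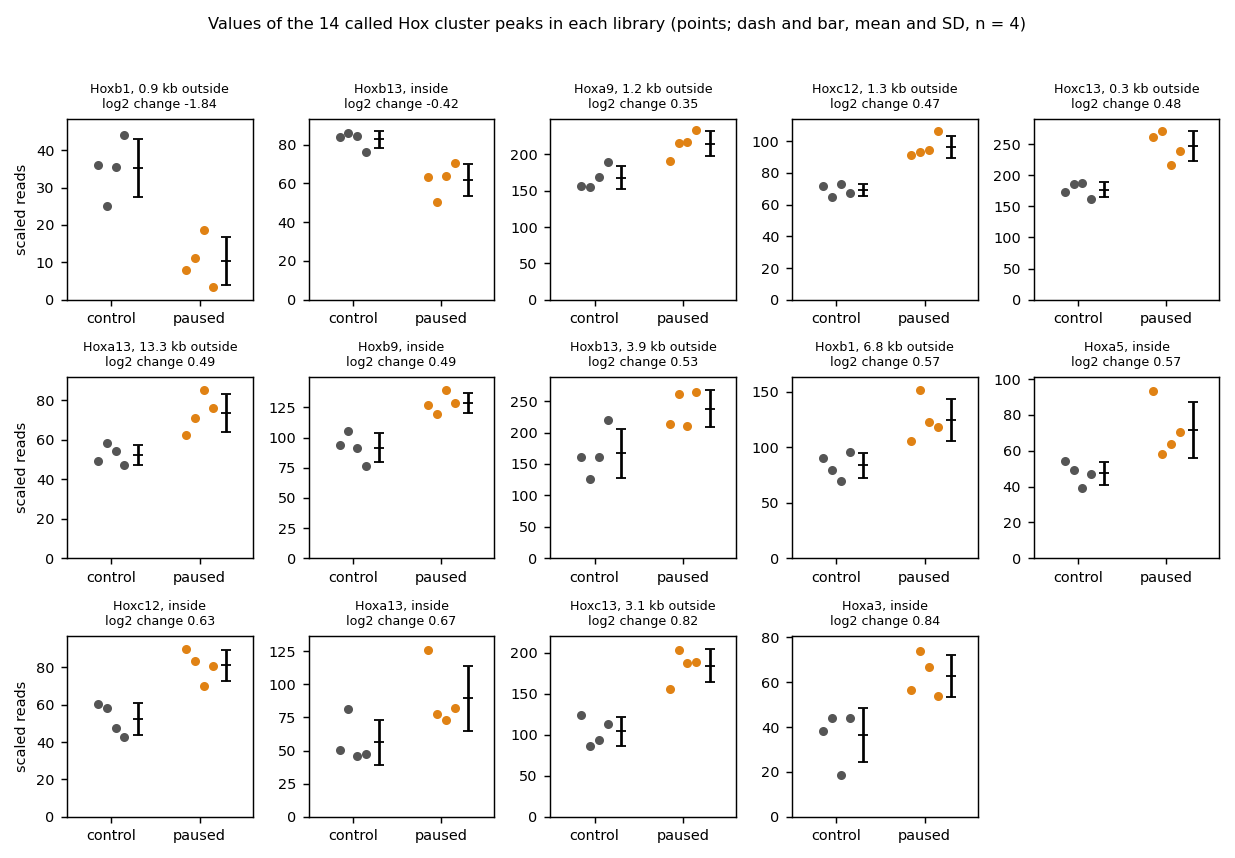
Scaled reads of the 14 called Hox cluster peaks in each of the 4 control and 4 paused libraries, with mean and SD beside the points (n = 4), in order of log2 change; every axis starts at 0. The groups overlap in the panels of Hoxa13 at 0.67 and Hoxb13 at 0.53 and are apart in the other 12.

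Seen gene by gene, 37 of the 38 members had at least 1 peak assigned to them as the nearest gene, and Hoxa6, which lies within the Hoxa3 span, had none of its own. A peak within 1 kb of a gene end was found for 33 members, and 5 had none (Hoxb7, Hoxc4, Hoxc6, Hoxc9 and Hoxd4). The strongest such peaks were 32 distinct peaks, since Hoxa5 and Hoxa6 share one, of which 6 were called higher and 1 lower. Their log2 changes ran from -0.59 at Hoxb3 to 0.84 at Hoxa4 with a median of 0.16. The 6 rises were those of Hoxa4, Hoxa5 with Hoxa6, Hoxa13, Hoxb9, Hoxc12 and Hoxc13, and the fall was that of Hoxb13. Of all 42 peaks within 1 kb of a member gene end 6 were higher and 2 lower (19.0%), and of the 92 tested peaks farther away 6 were higher (6.52%), against 13.9% of all tested peaks. The gene-end peaks were also stronger, with a median value of 65.5 against 42.9 farther away, and the part of strength in the counts was not tested.

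The weakest gene-end peaks were those of Hoxb3, at a log2 change of -0.59 (SE 0.37, adjusted p = 0.301), and of Hoxa9, with 18.4 ± 4.07 scaled reads in control and 20.6 ± 6.67 in paused cells (SD, n = 4). Hoxc13, with 177 ± 12.1 in control, had the strongest. Among the early Hoxd genes the gene-end peak of Hoxd3, a gene of the neck vertebrae, was at 103 ± 22.1 and 102 ± 9.20, nearly the same mean in both groups. The end peak of Hoxd9 was at 120 ± 20.3 and 114 ± 14.3, and that of Hoxa10, a gene of the uterus and lower spine, at 121 ± 7.91 and 129 ± 7.04. Hoxc9 rested on a single peak of 7.59 ± 4.18 and 8.98 ± 4.55, too weak to be tested. The 5 untested peaks were nearest to Hoxb8, Hoxb13, Hoxc9, Hoxc13 and Hoxd3.

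By limma-trend on the deposited values most calls were at late genes. Of 58 tested peaks of late genes 9 were higher and 1 lower (17.2%), and of 21 peaks of middle genes (groups 5 to 8) 1 was higher. Of 55 peaks of early genes 2 were higher and 1 lower (5.45%). With peaks assigned by the nearest gene midpoint instead, 7 peaks moved from the early to the middle class. Of 48 tested early peaks 2 were then higher and 1 lower (6.25%), and of 28 middle ones 1 was higher. The late counts stayed the same. Of all tested peaks 13.9% were called, and of all the strongest ones 20.2%. The late calls were 3 of 14 peaks in Hoxa, 3 of 13 in Hoxb, of which 2 were higher, 4 of 17 in Hoxc and none of 14 in Hoxd. The late peaks were also stronger, with a median value of 65.5 against 41.9 for the early ones, and the part of strength in the count was not tested. The median change was 0.13 for late and 0.05 for early peaks. With edgeR and TMM 6 late peaks were higher and 2 lower (13.8%), and 2 early peaks were higher and 6 lower (14.5%). That test called 12.7% of all tested peaks. TMM rescaling in limma-trend gave 5 late peaks higher and 1 lower, and 2 early peaks higher and 2 lower, with medians of 0.02 and -0.06. It called 10.0% of all tested peaks. Total reads in peaks gave 2 late peaks higher and 1 lower (5.17%), and 2 early peaks higher and 3 lower (9.09%), against 9.87% of all. DESeq2 called 1 late peak higher and 1 early peak lower, where 4.55% of all tested peaks were called. The loess correction on strength, which called 8.60% of all tested peaks, gave 1 higher and 2 lower in both sets. The medians were -0.00 for late and -0.07 for early peaks.

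The summed values of each cluster carry the same dependence on scaling. Hoxa summed to 2147, 2100, 1971 and 2113 scaled reads in control and 2428, 2295, 2335 and 2408 in paused cells, 13.6% higher on average. Hoxc summed to 1704, 1555, 1488 and 1546 in control and 1853, 1860, 1718 and 1825 in paused cells, 15.3% higher. In both clusters every paused library was above every control library. Hoxb, at 2079 ± 126 and 2231 ± 126, and Hoxd, at 2039 ± 144 and 2211 ± 81.1, were 7.30% and 8.42% higher with overlap (SD, n = 4). As a share of each library the clusters did not stand apart, since all Hox peaks together took 10.4 ± 0.567 of every 10000 scaled reads in control and 10.3 ± 0.565 in paused cells. As such a share Hoxa was 1.93% and Hoxc 3.42% higher, whereas Hoxb (-3.74%) and Hoxd (-2.69%) were lower, all with overlapping groups.

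A ratio of sums within a library does not depend on a single scaling factor for that library. It is not free of a shift that goes with peak strength. Late peaks had a median value of 65.5 and early ones of 41.9, and the part of strength in the ratio was not tested. The log2 ratio of the late to the early sum was 0.29, 0.33, 0.36 and 0.35 in the control and 0.46, 0.44, 0.46 and 0.45 in the paused libraries. All 4 paused libraries were above all 4 control libraries, with a mean of 0.33 ± 0.03 in control and 0.45 ± 0.01 in paused cells (SD, n = 4), a difference of 0.12. In each cluster taken alone the mean ratio was higher in paused cells but the groups overlapped, from 0.08 ± 0.04 against 0.13 ± 0.06 in Hoxa to -0.61 ± 0.14 against -0.42 ± 0.13 in Hoxb. Without Hoxc the difference was 0.09, and without the 14 called peaks and the untested ones it was 0.02. The called peaks were chosen by their difference between these same libraries, and most rises among them were at late genes. Leaving them out therefore lowers the difference in any case, and the 0.02 does not show where it lay. The late sum was 15.6% higher and the early sum 6.42% higher in paused cells, the latter with overlapping groups. Per 10000 of all values in the library the late sum was 5.02 ± 0.222 in control and 5.20 ± 0.247 in paused cells, and the early sum 3.99 ± 0.260 and 3.81 ± 0.188 (SD, n = 4). As such a share the late sum was 3.73% higher and the early sum differed by -4.55%, both with overlapping groups.

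**Figure D5:**
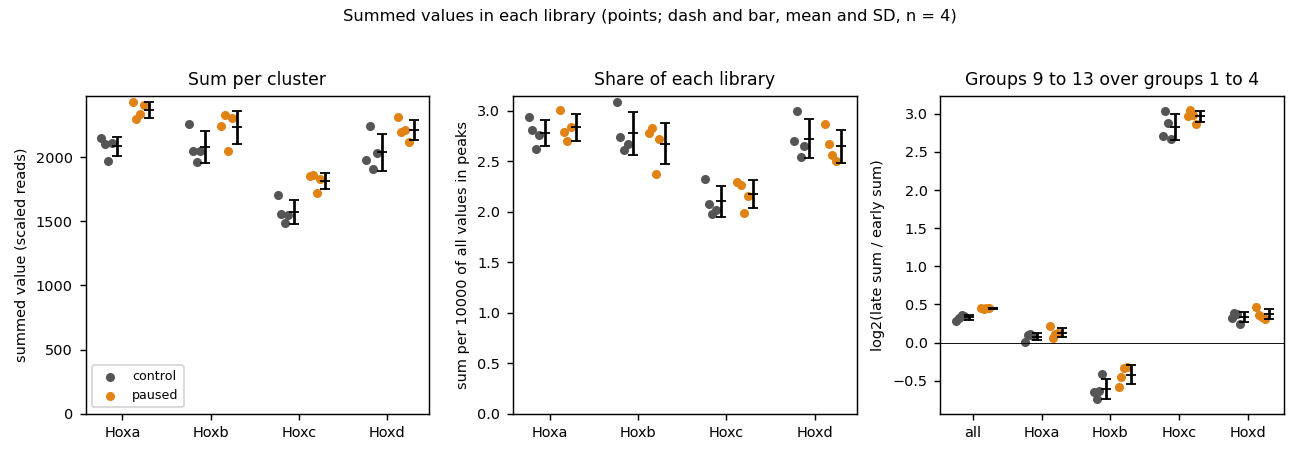
Summed scaled reads of each cluster (left), the same per 10000 of all values of the library (middle) and the log2 ratio of late to early sums (right) in each library, with mean and SD (n = 4), grey for control and orange for paused. Sums of Hoxa and Hoxc stand apart on the left, all shares overlap in the middle, and on the right the ratio over all clusters rises from 0.33 to 0.45.

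Long noncoding RNA genes are strewn through the clusters and were looked at for the same reason as Hotair. With symbols that start with LOC left out, RefSeq names 25 of them in the windows. Of these, 21 had 1 of the 139 Hox cluster peaks within 1 kb of an end. Only the nearest such peak of each gene was counted, 19 distinct peaks in all. One of the 19, at Gm36878, was too weak to be tested. Neither limma-trend nor edgeR with TMM called any of the others, where they called 13.9% and 12.7% of all tested peaks. Of these end peaks 3 had an unadjusted p under 0.05 by limma-trend, as did 36517 of all 127402 tested peaks. Peaks outside the 139 were not searched. At least 1 of them, 20163 bp from Hoxb9, lies within 1 kb of an end of Gm53. It was called higher by limma-trend (0.47, adjusted p = 0.0128). Hoxb3os, which overlaps the early Hoxb genes, went from 77.2 ± 23.6 to 96.8 ± 9.10 (SD, n = 4) at its nearest end peak (0.37, adjusted p = 0.122). A peak within 1 kb of its other end, not among the 19, went the other way. That peak went from 86.9 ± 9.22 to 66.6 ± 10.4 and was not called by limma-trend (-0.39, adjusted p = 0.0749). Hoxaas3 holds the called Hoxa5 peak inside its span, while its own end peak was not called (0.30, adjusted p = 0.280). A gene that was left out, LOC115490409, overlaps the called peak 322 bp from the end of Hoxa4. Haglr shares its end peak with the Hoxd1 promoter described above.

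The density of peaks was higher than elsewhere, with neighbours a median of 3189 to 3692 bp apart in the 4 clusters against 6856 bp over all peaks. There were 24.6 peaks per 100 kb in Hoxa, 21.5 in Hoxb, 21.2 in Hoxc and 21.9 in Hoxd. The count for Hoxb includes 4 peaks between Hoxb13 and Hoxb9 that lie over 20 kb from both genes and are not among the 139. At the 20 kb limit the last peaks inside were 19479 bp from Hoxd13 (log2 change -0.35), 18682 bp from Hoxb13 (-0.64) and 16789 bp from Hoxb9 (0.51). The first peaks outside were 20163 bp from Hoxb9 (0.47, the only called one of these 6, higher), 20447 bp from Hoxa13 (-0.39) and 20556 bp from Hoxd13 (0.11).

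Genes that act with or on the Hox genes were counted in the same way. TALE homeodomain proteins, among them those of the Meis and Pknox families, are the cofactors with which Hox proteins bind DNA. Of these, 3 genes are given, chosen after their values were seen. Of the tested peaks at Meis1 1 of 17 was higher and 2 were lower, at Meis2 3 of 22 were higher, and at Pknox2 4 of 38 were higher and 1 was lower. Pknox2 had both directions within one gene. A peak inside it rose from 53.6, 59.7, 47.4 and 64.7 to 100.4, 104, 107 and 109 without overlap (0.90, SE 0.14, adjusted p = 4.1e-05), and another fell from 38.7, 33.4, 23.7 and 38.2 to 6.92, 15.8, 7.76 and 10.54, also without overlap (-1.66, SE 0.28, adjusted p = 0.0001). At Meis2 all 3 calls were rises.

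Of 84 tested peaks at 8 regulators of Hox genes 8 were higher and 1 lower (10.7%, median 0.08), against 13.9% called and a median of 0.10 among all tested peaks. The caudal-type factors, which switch on trunk Hox genes, went both ways. Cdx1 had 3 of 9 peaks higher and Cdx4 1 of 4 higher, whereas the call at Cdx2 was a fall with overlapping groups, from 29.4, 16.7, 27.1 and 39.7 to 17.3, 6.31, 10.9 and 17.6 (-1.10, adjusted p = 0.0120). Among retinoic acid receptors Rarg had 2 peaks higher of 16, Rara 1 of 21, and Rarb none of 10 called. Genes that border the clusters had 15 peaks higher and 3 lower of 117 (15.4%, median 0.13), which is near the same 13.9%. Skap2, next to Hoxa, had 5 of 13 higher, and Skap1, next to Hoxb, 4 of 31 higher. The homeobox genes Evx1 and Evx2 had 5 tested peaks of their own, with a median change of 0.03, beside 8 that they share with the Hox windows.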

How the data were processed

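The series holds ATAC-seq of 4 control and 4 paused libraries. The submitters' processing notes name FastQC, Trim Galore, Bowtie2 2.4.1, MACS3 3.0.3, DiffBind 3.16.0 and the build mm10, with no settings. The deposited per-library values are a signal, reads per peak of 201 bp divided by 1 factor per library, which follows from the values: 100% of them were whole multiples of 1 step, within 0.1 of a read. How the factors were made is not given in the sources used here. The authors also deposited log2 folds and p-values with FDR of their own comparison, used only where their table is named.

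Member spans came from RefSeq (GRCm38.p6, 38 of 38 matched), in a table without strand or exons, and promoter starts and strands from the RefSeq promoter table. A peak was assigned to the member with the nearest span, and in a tie to the one with the nearer midpoint. Tests used limma 3.58.1 (limma-trend, pseudocount 1, Benjamini-Hochberg adjustment) in R 4.3.3. The design had assumed raw counts, so edgeR 4.0.16 (16142 of 127402 peaks called with TMM) and DESeq2 1.42.0 on the recovered reads were alternatives, besides a pseudocount of 0.1, no filter, a mean of at least 50 reads, TMM and total-read scaling, loess correction (span 0.3), a replicate block, margins of 5 and 50 kb and each library left out. The alternatives for late and early peaks were chosen after seeing the data. The fits were tested on simulated data. A value of 3 reads, the limit that a count of 0 allows, is 1.04 in control replicate 1 and 5.08 in control replicate 3, and covers counting error only.

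Peaks named per cluster were the strongest, the largest rise and fall among called peaks, other called peaks without overlap, and the 3 gene-end peaks of smallest adjusted p. The Hotair, Hoxd10 and microRNA peaks were added after their values were seen. The members and lists were chosen with earlier results of these data known. The summary over the list of cofactors is not reported here.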

Additional observations from a re-analysis of the deposited data

Results flagged for a closer look

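In 2 of 56 groups of 4 libraries 1 library lay far from the other 3 by Dixon's ratio, past its 95% limit, and chance alone gives about 1 in 20. Both were control replicate 2 at a gene of group 13. The peak inside Hoxa13 held 81.2 scaled reads there and 45.7 to 50.5 in the other controls (ratio 0.866). The peak inside Hoxd13 held 159 there and 85.0 to 95.5 in the other controls (ratio 0.858).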

How the results depend on the processing

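Of the 14 called Hox peaks named in the text, 2 kept their call in every alternative run on them, the fall beside Hoxb1 and the rise between Hoxc12 and Hoxc13. Over the 14 peaks and their alternatives the call was kept in 187 of 250 cases and lost in 63, and none changed sign. Among named peaks that were not called, the peak inside Hoxd13 changed sign under the loess correction (-0.00659). The number of Hox peaks called higher (12) fell to 1 with DESeq2, 7 with TMM rescaling, 4 with total reads in peaks and 2 with the loess correction, and was 9 to 14 with 1 library left out. The number called lower (2) was 1 with a pseudocount of 0.1, without a filter, with a mean of at least 50 reads and with DESeq2, 9 with edgeR and TMM, 5 with edgeR and the deposited factors, 5 with total reads and 4 with the loess correction. It was 1 without any single control library and without paused replicate 2 or 3, and 1 to 2 over all libraries left out. Late peaks called higher (9) were 1 with DESeq2, 5 with TMM rescaling, 2 with total reads and 1 with the loess correction. Early ones (2) were 1 with a mean of at least 50 reads, 0 with DESeq2 and 1 with the loess correction.

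The log2 ratio of summed values, paused to control, was 0.18 in Hoxa, 0.10 in Hoxb, 0.21 in Hoxc and 0.12 in Hoxd. With TMM scaling of the sums it was 0.0761, -0.00623, 0.0974 and 0.00845, and with total reads 0.0275, -0.0551, 0.0486 and -0.0393. Over peaks inside member genes alone it was 0.0748 in Hoxc. The difference in the late to early ratio (0.12) was 0.0893 without Hoxc, 0.0236 without the called and the untested peaks, and 0.10 to 0.13 with 1 library left out. The cause of these shifts was not tested.

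With the replicate number as a block (replicate block), 12 Hox peaks were higher and 3 lower. Same-numbered libraries deviated together with correlations of 0.08, 0.04, 0.13 and 0.04, not all above 0.1, and control replicate 2 correlated best with paused replicate 1, so that the numbers were not taken as pairs. Outside control replicate 1 the median peak held 18 to 29 reads, which limits what weak Hox peaks can show.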
